A study of Mus musculus with 2 samples.

Results

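Metallothioneins and the carriers of zinc and copper were described in mouse intestine as a set of 34 genes: 4 metallothioneins, the zinc sensor Mtf1, 10 zinc exporters of the Slc30 family, 14 zinc importers of the Slc39 family and 5 genes of copper handling. They were taken by gene name from the arrays, with all their probes, which gave 57 of 41174 probes and 34 of 26582 genes or unnamed probes. The members were chosen by family name, with the ratio of knockout over wild type on these arrays in view, in which Mt1 stood far apart. That ratio is therefore given as a description, with no p for any member. The members are among the genes of a fit over the whole array, whose count of calls is given as background.

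Total RNA of the intestine came from male C57BL/6 mice, 20 weeks of age and on a normal diet. One group is labelled gut-specific GDE5 (Gpcpd1) deficient, or GDE5 KO, and the other wild-type. GDE5 is the enzyme encoded by Gpcpd1, which frees choline from glycerophosphocholine. According to the series text 5 mice were used, and whether their RNA was pooled, what drives the deletion in the gut and which part of the gene is removed are not given in the sources used here. Each of 2 dual-colour Agilent arrays compared the genotypes directly, with the RNA labelled KO in Cy3 on the array called replicate 1 and in Cy5 on the array called replicate 2. It is not stated whether separate extracts were used for them, so the SD of the 2 arrays (n = 2) may be technical.

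Each array held 43379 spots of gene probes. A probe was kept when one genotype, the same on each array, was well above background, as for 29047 of them, which left 18988 genes for the comparison, each by its brightest probe. Ratios are log2 ratios of the RNA labelled KO over the RNA labelled WT, and intensities are normalized spot brightness with 50 units added. Intensities were normalized within each array only and the genotypes are paired on each array. Whether intensities of the groups overlap across arrays is therefore a description. A change of 1.5-fold, the size used for counts, is 0.585 on the log2 scale. Limma, fitted over all genes, called 0 of the 18988 at an adjusted p under 0.05 (0.0%), and 236 had an unadjusted p under 0.05. Across genes, which are not independent replicates, the KO over WT ratios of replicates 1 and 2 had r = -0.38. Gpcpd1 was not lower at 3 of its 4 probes (means of 0.47, 0.62 and 0.68). The last had a mean of -0.13 and turned sign between the arrays (-0.43 in replicate 1 and 0.17 in replicate 2). Every direction below thus rests on the dye labels, and the groups are called the RNA labelled KO and the RNA labelled WT.

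Metallothioneins are short proteins, rich in cysteine, that hold zinc and copper ions in the cytosol. In mice the transcription factor MTF-1, encoded by Mtf1, binds zinc and then metal response elements in DNA, and so drives Mt1, Mt2 and the exporter gene Slc30a1. Exporters of the Slc30 family move zinc out of the cytosol and importers of the Slc39 family move it in. In enterocytes Slc39a4 takes up dietary zinc at the brush border, Slc31a1 takes up copper, and Atp7a passes copper on to the blood.

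The sequences behind the metallothionein results are shown first. The main Mt1 probe and a probe of Mt4 each hold a reading frame without a stop, of 19 codons, and the capitals mark the codons TGC and TGT in it, which encode cysteine, the residue that binds the metal. There are 6 such codons in the Mt1 probe and 9 in the Mt4 probe. The Mt1 probe lies at chr8:96704011-96704070 and the Mt4 probe spans chr8:96662155-96662693, both in the mm9 coordinates of the array design, and both are written as the design file gives them.
Mt1 A_51_P294979: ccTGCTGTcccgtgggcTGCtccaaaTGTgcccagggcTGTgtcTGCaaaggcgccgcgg
Mt4 A_51_P424272: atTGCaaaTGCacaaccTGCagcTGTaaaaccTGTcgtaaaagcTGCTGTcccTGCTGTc
In ungapped alignments of at least 20 bases, the longest run that the main Mt1 probe shared with any probe of Mt2, Mt3 or Mt4 was 6 bases. That limit leaves out shorter overlaps, and there the start of the Mt1 probe shares a longer run with the end of the Mt4 probe printed above.

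Promoters of the MTF-1 targets Mt1, Mt2 and Slc30a1 are shown because these genes share a regulator. The 250 bases before the RefSeq start site are printed in the direction of the gene, from GRCm38.p6. Capitals mark the core of the metal response element, searched as TGCACNC and TGCGCNC on both strands. The windows are chr8:94178839-94179088, chr8:94172368-94172617 and chr1:191906531-191906780, all on the plus strand.
Mt1: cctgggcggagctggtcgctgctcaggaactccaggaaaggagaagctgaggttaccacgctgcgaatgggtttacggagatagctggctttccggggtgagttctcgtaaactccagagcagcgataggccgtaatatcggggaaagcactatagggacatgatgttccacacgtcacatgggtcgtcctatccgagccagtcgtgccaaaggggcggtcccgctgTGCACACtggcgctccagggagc
Mt2: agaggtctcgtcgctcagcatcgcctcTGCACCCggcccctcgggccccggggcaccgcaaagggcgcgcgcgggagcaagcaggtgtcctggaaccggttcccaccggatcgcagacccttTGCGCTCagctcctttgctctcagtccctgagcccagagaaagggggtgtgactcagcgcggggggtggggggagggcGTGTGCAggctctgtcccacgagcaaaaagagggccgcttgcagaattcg
Slc30a1: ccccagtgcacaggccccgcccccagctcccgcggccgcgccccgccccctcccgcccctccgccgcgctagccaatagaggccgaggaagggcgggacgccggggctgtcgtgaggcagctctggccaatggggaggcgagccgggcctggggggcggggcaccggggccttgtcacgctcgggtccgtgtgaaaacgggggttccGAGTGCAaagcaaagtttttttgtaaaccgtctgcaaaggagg
Mt1 had 1 core before the RefSeq start and 2 within the 50 bases after it, at chr8:94179091-94179115, which read:
Mt1 cores after the start: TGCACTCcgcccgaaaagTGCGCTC
Over the whole window of 300 bases Mt1 thus held 3 cores, Mt2 held 4 and Slc30a1 held 2. These counts and positions hold for the RefSeq start only. Other start sites were not looked at, and sequence beyond the window was not searched, so the genes are not ranked by them. Of all 32851 promoter windows of that length, 25.7% held at least 1 core, 6.14% at least 2, 1.31% at least 3 and 0.295% at least 4. TGCACNC was in 12.6% of the windows and TGCGCNC in 15.4%. Of the 30 members with a window, 18 had at least 1 core and 7 at least 2, Mtf1 itself having 0. The 5 members with several windows were counted by the window with the most cores, while the shares of all windows are of single windows. Cores that overlap on the 2 strands were counted as 1.

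Mt1 was lower in the RNA labelled KO on both arrays by far more than the arrays differed from each other. Its main probe had normalized intensities of 10343 and 10777 in the RNA labelled KO, against 72963 and 87500.4 in the RNA labelled WT, for replicates 1 and 2. Both values of the RNA labelled KO lay below both values of the RNA labelled WT. The log2 ratios were -2.82 and -3.02, with a mean of -2.92 ± 0.14 (SD, n = 2), which is 7.57-fold lower. The second Mt1 probe, A_52_P423810, lies 0.167 kb away on the design's coordinates (chr8:96703844-96703903) and is annotated in the design to another transcript record of the gene. It was dimmer and lower by nearly as much, with 283 and 347 in the RNA labelled KO, against 1398 and 2221 in the RNA labelled WT. Its mean log2 ratio was -2.49 ± 0.27 (SD, n = 2).

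The main Mt1 probe is printed 10 times on each array, which gives its precision within an array. The 10 spots of replicate 1 had log2 ratios of -3.08 to -2.43, with a median of -2.93 and an SD of 0.265. Of the spots of replicate 2, 1 was marked as an outlier and left out, and the other 9 had ratios of -3.41 to -2.83, with a median of -2.99 and an SD of 0.203. The 19 spots with a value all lay at -2.43 or lower. In the scanner software's own processed ratios the spots ran from -3.13 to -2.80 in replicate 1 and from -3.24 to -2.90 in replicate 2, with an SD of 0.105 on each. No spot of the arrays was saturated (0 in both).

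The ratios of the other metallothioneins lay between -0.39 and 0.27 on each array. Mt2, the closest relative of Mt1 and expressed beside it in most tissues, had intensities of 10088 and 11203 in the RNA labelled KO, against 13209.6 and 10233 in the RNA labelled WT. The groups overlapped, and the ratio was -0.39 in replicate 1 and 0.13 in replicate 2. Its mean of -0.13 ± 0.37 (SD, n = 2) was smaller than the spread of the arrays. Mt3, the metallothionein known from brain, had 614 and 633 in the RNA labelled KO, against 683 and 598 in the RNA labelled WT. Mt4, known from stratified epithelia, had 148 and 180.4 in the RNA labelled KO, against 185 and 149.7 in the RNA labelled WT. Both went opposite ways on the arrays, with means of -0.04 ± 0.17 and -0.03 ± 0.42 (SD, n = 2). The second Mt4 probe was not well above background in either genotype.

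**Figure D1:**
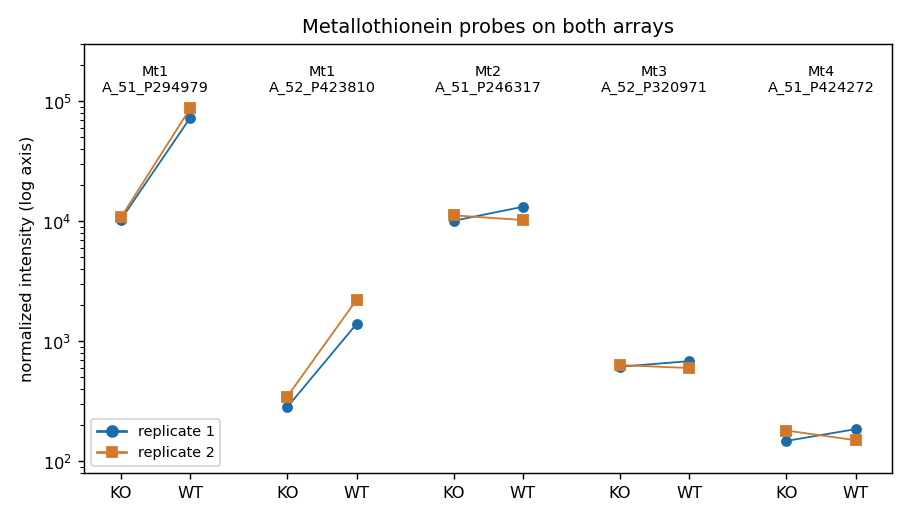
Normalized intensity (log axis) of the 5 metallothionein probes well above background, in the RNA labelled KO and the RNA labelled WT, with a line for each array. Both Mt1 probes slope upwards to WT on both arrays, while the lines of Mt2, Mt3 and Mt4 cross.

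The metallothionein genes lie side by side on chromosome 8, so probes around Mt1 were looked at by position. The Mt2 probe is 6.64 kb from the main Mt1 probe, the Mt3 probe 26.1 kb and the Mt4 probe 41.9 kb, all on mm9. Within 1000 kb on either side, 48 other probes of 35 genes were well above background. Their mean ratios ran from -0.29 at Cpne2 to 0.49 at one probe of Nudt21, with a median of -0.03, and 0 of them reached 1.5-fold with the same sign on each array. Few of all genes did (0.0579% lower and 0.158% higher), so nothing is read from that count. On the whole chromosome, 2 other genes were past that size on both arrays. Tat, which starts tyrosine breakdown, was at -1.07 and lies 15.8 Mb away, and a clone without a gene symbol was at 3.52 and lies 29.2 Mb away.

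**Figure D2:**
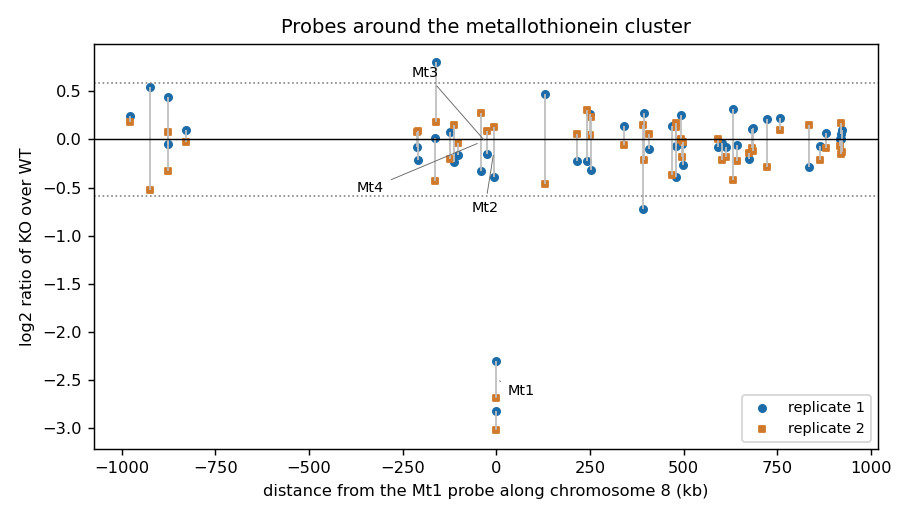
Log2 ratio of KO over WT of each probe well above background within 1000 kb of the main Mt1 probe on chromosome 8, by its distance from it in kb. Circles are replicate 1 and squares replicate 2, a grey line joins the arrays and dotted lines mark 1.5-fold. The 2 Mt1 probes lie alone between -2.30 and -3.02, and of the other probes, 1 of Nudt21 (0.80) and that of Cpne2 (-0.73) pass 1.5-fold on replicate 1 and none does on both arrays.

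Over the whole set, Mt1 was the only member past 1.5-fold on both arrays. Of 34 members, 31 had a probe well above background. Of these, 1 was at least 1.5-fold lower on both arrays, where 0.0579% of all genes were, and 0 were at least 1.5-fold higher on both, where 0.158% of all genes were. The difference of Mt1 helped to choose the set, so nothing is read from that count. By sign alone, 7 members were lower on both arrays (18.1% of all genes), 2 were higher on both (16.9% of all genes) and 22 went opposite ways. The members' median was -0.04 (0.03 on the array of replicate 1 and -0.11 on that of replicate 2), and the median of all genes was -0.01. The probes of Slc30a3, Slc30a8 and Slc39a12 were not well above background in either genotype, so these 3 members have no ratio here. Slc30a3 is known from neurons and Slc30a8 from pancreatic beta cells.

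**Figure D3:**
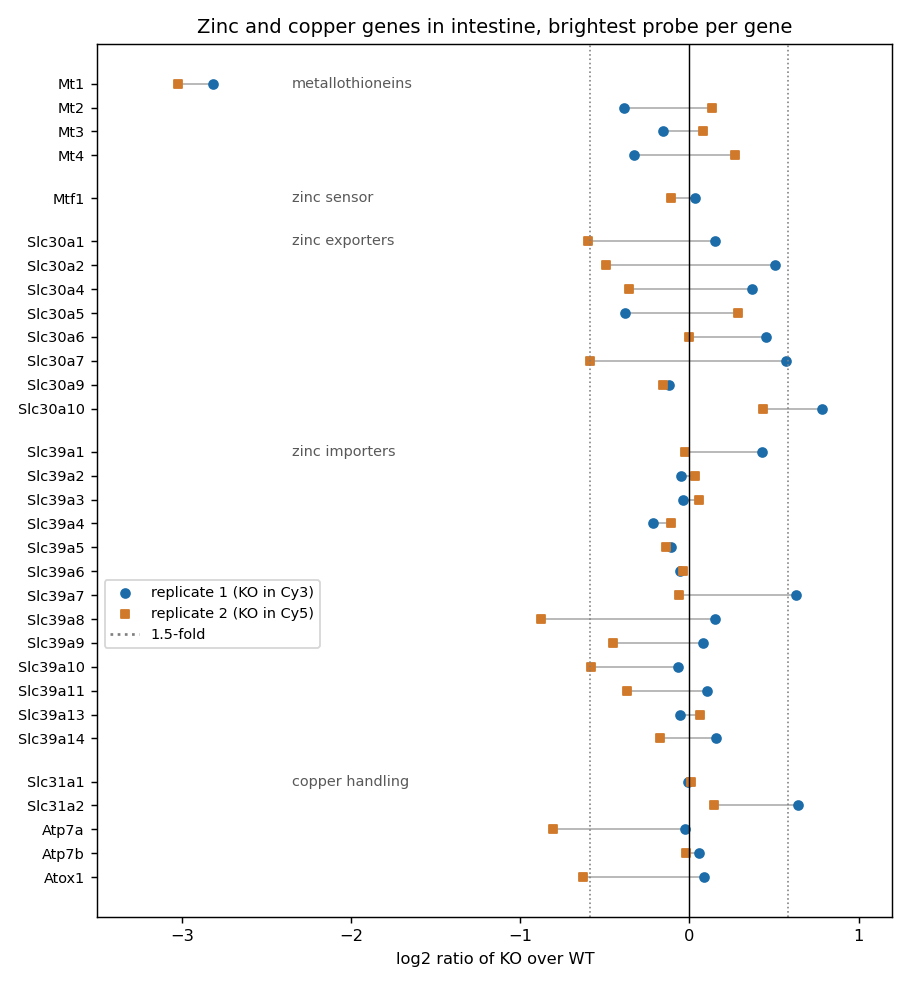
Log2 ratio of KO over WT of the 31 members with a probe well above background, by role. Circles are replicate 1 (KO in Cy3), squares replicate 2 (KO in Cy5), and dotted lines mark 1.5-fold. Mt1 stands apart at -2.82 and -3.02, and Slc30a10 is the only member above 0.4 on both arrays.

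A ratio that turns sign between the arrays keeps its sign when read by dye, Cy5 over Cy3. By their brightest probes, Slc30a2, Slc30a4 and Slc30a7 had ratios of 0.51, 0.37 and 0.57 in replicate 1, where the knockout carried Cy3. In replicate 2, where it carried Cy5, they had -0.49, -0.36 and -0.59. Probes of a gene could differ in this. For Slc30a7, A_52_P147666 was at 0.45 and -0.39, but A_52_P83193 at -0.29 and 0.12. For Slc30a5, the brightest probe was at -0.38 and 0.29, and A_52_P105501 at 0.35 and -0.55. Read by dye, 0 of the 31 members reached 1.5-fold one way on each array, as 1.05% of all genes did. In the scanner software's processed ratios, Slc30a2 was at 0.01 and -0.00, and Slc30a4 at -0.14 and -0.02. There 9 members were lower on both arrays (21.1% of all genes by that ratio), 5 were higher on both (20.2% of all genes) and 17 went opposite ways. The members lower on both arrays in both kinds of ratio were 5, namely Mt1, Atp7a, Slc39a4, Slc39a5 and Slc39a10, and those higher on both were 2, Slc30a10 and Slc31a2. Over 8 ways of making the ratio, with the brightest probe of each gene, Mt1 was the only member lower on both arrays in each. Slc30a10 was the only one higher on both in each.

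**Figure D4:**
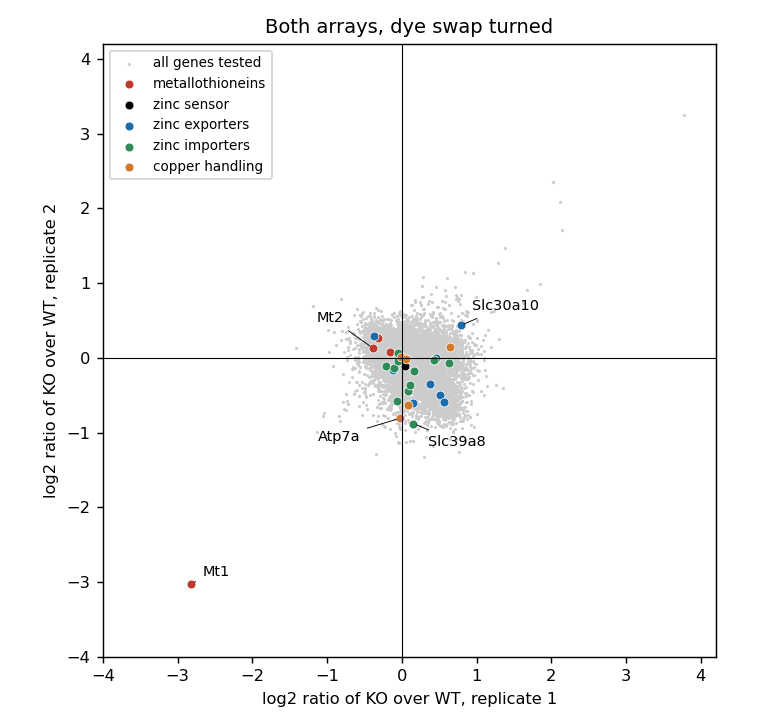
Log2 ratio of KO over WT in replicate 2 against replicate 1 for all 18988 genes (grey) and the 31 members (coloured by role). Mt1 lies far out at the lower left, Slc30a10 at the upper right, and most members fall in the lower right or upper left, where the arrays disagree in sign.

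The zinc sensor and the main zinc exporter of the cell surface, both tied to Mt1 through MTF-1, differed less than Mt1. Mtf1 had intensities of 1704 and 1598 in the RNA labelled KO, against 1664 and 1727 in the RNA labelled WT. These values overlapped, with a mean log2 ratio of -0.04 ± 0.10 (SD, n = 2), and its second probe well above background was at -0.04 ± 0.38. Slc30a1, which exports zinc across the basolateral membrane of enterocytes, has 2 probes that disagreed. The brighter, A_51_P250378, had 4283 and 3319.5 in the RNA labelled KO, against 3860.3 and 5031 in the RNA labelled WT, with ratios of 0.15 and -0.60. The other, A_51_P300572, had 1951 and 1969 in the RNA labelled KO, against 2947 and 2734 in the RNA labelled WT. There the groups did not overlap, and the mean ratio was -0.53 ± 0.09 (SD, n = 2), a fold of 1.45 lower. In the scanner software's processed ratios both probes were lower on both arrays, at -0.33 and -0.31 and at -0.52 and -0.45.

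Slc30a10 was the member with the highest mean ratio. Named for zinc, it is best known in mice and humans as an exporter of manganese from gut and liver cells. Its brighter probe had 532 and 613 in the RNA labelled KO, against 309 and 453 in the RNA labelled WT. Both values of the RNA labelled KO were above both of the RNA labelled WT, and the mean log2 ratio was 0.61 ± 0.25 (SD, n = 2). The second probe, A_51_P173445, was at 0.11 ± 0.07, with 274 and 271 in the RNA labelled KO, against 247 and 259.8 in the RNA labelled WT. The size of this difference thus depended on the probe, while both means were above 0. On replicate 2 the second probe was at 0.06, and at -0.04 with marked spots kept and -0.10 with median centring in place of loess.

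The other exporters were near 0 on average, with a spread between the arrays larger than the mean for all but 1 of them. Slc30a2, which loads zinc into secretory granules, among them those of Paneth cells, was at 0.01 ± 0.71 (SD, n = 2). Slc30a4, an exporter of intracellular vesicles, was at 0.01 ± 0.51. The exporters of the secretory pathway Slc30a5, Slc30a6 and Slc30a7 were at -0.05 ± 0.47, 0.23 ± 0.32 and -0.01 ± 0.82. Slc30a9, a mitochondrial exporter, was the exception, at -0.14 ± 0.02 with its brightest probe and at -0.08 ± 0.10 and 0.01 ± 0.01 with its others. Of the 8 exporters measured, 1 was higher on both arrays (16.9% of all genes) and 1 lower on both (18.1% of all genes).

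None of the 13 measured zinc importers was past 1.5-fold on both arrays (0 in either direction), where few of all genes were (0.0579% lower and 0.158% higher). Slc39a4, the main dietary zinc importer of the enterocyte, had 50499 and 50559 in the RNA labelled KO, against 58655 and 54426 in the RNA labelled WT. The groups did not overlap, but the difference was small, with a mean log2 ratio of -0.16 ± 0.08 (SD, n = 2). Leaving the marked spots in gave a mean of -0.00. Slc39a5, an importer of the basolateral membrane that is also known from pancreas acini, had 242 and 244 in the RNA labelled KO, against 262 and 269 in the RNA labelled WT. Its mean was -0.12 ± 0.02. Of the importers, 4 were lower on both arrays (18.1% of all genes) and 0 higher on both (16.9% of all genes).

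Slc39a8 and Slc39a14, which carry other metals besides zinc, manganese among them, both went opposite ways on the arrays. Slc39a8 had 483 and 303 in the RNA labelled KO, against 435 and 557 in the RNA labelled WT, and so was at 0.15 in replicate 1 and at -0.88 in replicate 2. Slc39a14 was at 0.16 and -0.17. Slc39a10, a plasma membrane importer, was lower on both arrays but at unequal size (-0.07 and -0.58). The importers of the Golgi Slc39a9, Slc39a11 and Slc39a13 were at -0.19 ± 0.37, -0.13 ± 0.34 and 0.00 ± 0.08. Slc39a7, which releases zinc from the endoplasmic reticulum, was at 0.63 in replicate 1 and -0.06 in replicate 2. The remaining importers Slc39a1, Slc39a2, Slc39a3 and Slc39a6 had means of -0.05 to 0.20.

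Of the 5 genes of copper handling, 0 were past 1.5-fold on both arrays, where few of all genes were (0.0579% lower and 0.158% higher). Slc31a1, the high-affinity copper importer, had 18625 and 19068 in the RNA labelled KO, against 18757 and 18965 in the RNA labelled WT. Its mean ratio was the closest to 0 of the 31 members (-0.00 ± 0.01, SD, n = 2), although its dimmer probe was at 0.24 ± 0.39. Slc31a2, a related protein of endosomes, was higher on both arrays at 0.64 and 0.14. Atp7a, the pump that moves copper out of the enterocyte, had 3195 and 1947 in the RNA labelled KO, against 3258 and 3411 in the RNA labelled WT, with a mean of -0.42 ± 0.55. Its dimmer probe was at 0.10 ± 0.23, and this gap of 0.51 between probes of a gene was the largest in the set. Atox1, the chaperone that hands copper to Atp7a and Atp7b, was at 0.08 and -0.63, and Atp7b, known for copper export into bile, at 0.02 ± 0.05.

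Other genes of metal handling and stress were looked at as lists. Beside the counts of these and the later lists, 18.1% of all genes were lower and 16.9% higher on both arrays. Of 18 further copper genes measured, 3 were higher and 4 lower on both arrays (median -0.04). Cutc was at 0.35 ± 0.31, the copper-dependent ferroxidase Heph, which works with iron export, at 0.34 ± 0.30 and the copper and zinc enzyme Sod1 at 0.21 ± 0.13. Xiap, an inhibitor of caspases that also binds copper, was lower on both at -0.19 and -0.10. Of 19 iron genes, 4 were higher and 3 lower on both (median -0.01). The iron exporter Slc40a1 was at -0.34 ± 0.30 and transferrin, Trf, at -0.15 ± 0.02, while Slc25a37, which carries iron into mitochondria, was at 0.09 ± 0.09. Of 20 genes of oxidative and metal stress, 3 were higher and 3 lower on both (median 0.01; the arrays' own medians were 0.26 and -0.15), among them the chaperone genes Hspb1 at 0.37 ± 0.41, Hspa1a at 0.21 ± 0.18, Dnaja1 at -0.20 ± 0.13 and Dnajb1 at -0.09 ± 0.00. None of these lists had a gene past 1.5-fold on both arrays (0 in each direction), where few of all genes were (0.0579% lower and 0.158% higher).

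Glucocorticoids induce Mt1 and Mt2 as well as zinc does, so genes known to respond to them were listed too. Of 20 measured, 4 were higher and 5 lower on both arrays, with a median of -0.04. Tat had 924 and 1004 in the RNA labelled KO, against 2038 and 2000.2 in the RNA labelled WT, and was the only one past 1.5-fold on both arrays. G6pc, the last enzyme of glucose release, was at -0.53 ± 0.14 (SD, n = 2). Glul, which makes glutamine, and the stress gene Ddit4 were higher on both arrays, at 0.18 ± 0.05 and 0.11 ± 0.02.

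Markers of other cell types and tissues were set beside Mt1, which many cells express. Beside the counts by direction below, 18.1% of all genes were lower and 16.9% higher on both arrays. In bulk RNA, fewer cells of a type and less RNA per cell cannot be told apart. Of 14 measured Paneth cell genes (19 listed), 5 were lower and 1 higher on both arrays (median -0.22). Their summed normalized intensity was 1064079 and 1218118 in the RNA labelled KO, against 1422251 and 1234620.0 in the RNA labelled WT. Of 18 measured genes of exocrine pancreas (25 listed), 4 were lower and 1 higher on both (median -0.08), with sums of 216792 and 245174 in the RNA labelled KO, against 265101 and 211937 in the RNA labelled WT. Zg16, which goblet cells of the intestine also make, was 80.7% to 86.9% of these sums. Without it the other 17 summed to 34662 and 32082 in the RNA labelled KO, against 38796 and 40818 in the RNA labelled WT. These sums were lower on both arrays, and Clps and Pnliprp2 made up most of them. Clps, which is also in the Paneth list, had 23696 and 23070 in the RNA labelled KO, against 27405 and 27204 in the RNA labelled WT. Pnliprp2 went opposite ways on the arrays, with log2 ratios of 0.02 and -0.81. The pancreas genes Cela2a, Cpa1, Ctrc and Pnlip were not well above background.

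Of 13 measured hepatocyte genes (18 listed), 8 were lower and 2 higher on both arrays (median -0.07), with sums of 17372 and 17579.6 in the RNA labelled KO, against 16569.8 and 18139 in the RNA labelled WT. Cps1, which enterocytes also express, was 72.0% to 81.4% of these sums. Without it the other 12 summed to 3295 and 3269 in the RNA labelled KO, against 4638 and 4767 in the RNA labelled WT. These sums were lower on both arrays, and most of the gap lay in Tat and Cyp2e1. Tat had 924 and 1004 in the RNA labelled KO, against 2038 and 2000.2 in the RNA labelled WT. Cyp2e1 had 744 and 802 in the RNA labelled KO, against 1044 and 1057 in the RNA labelled WT. The defining hepatocyte genes Alb, Apoa2, Fga and Fgg were not well above background. Of 13 adipocyte genes, 5 were lower and 0 higher on both (median -0.04), with sums of 58596 and 51685 in the RNA labelled KO, against 62201 and 63321 in the RNA labelled WT. Of these 4 lists, 1 gene was past 1.5-fold on both arrays, Tat of the hepatocyte list. Enterocyte genes had a median of -0.03, with 6 of 18 higher and 5 lower on both and sums of 636008 and 629987 in the RNA labelled KO, against 575518 and 602090 in the RNA labelled WT. Without Fabp2, the brightest, the order of the enterocyte sums turned, with 489428 and 481215 in the RNA labelled KO, against 499554 and 493492 in the RNA labelled WT. All 18 were well above background.

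Markers of muscle and of B and plasma cells were higher more often than lower, where 16.9% of all genes were higher and 18.1% lower on both arrays. Of 15 measured skeletal muscle genes (16 listed), 12 were higher and 2 lower on both arrays (median 0.34), with sums of 5117 and 4776 in the RNA labelled KO, against 3001 and 2904 in the RNA labelled WT. Of 15 B and plasma cell genes, 9 were higher and 2 lower on both (median 0.17), with sums of 71899 and 79273 in the RNA labelled KO, against 65515 and 61318 in the RNA labelled WT. Jchain made up 71.3% to 77.7% of the B and plasma cell sums, and without it the sums were 19929 and 17675 in the RNA labelled KO, against 15449 and 17587 in the RNA labelled WT. Sums without a list's brightest gene were added after the values were seen. Past 1.5-fold on both arrays, 6 muscle genes, 2 enterocyte genes and 1 B cell gene were higher, where 0.158% of all genes were. The part of any of these cell types in the Mt1 difference was not tested.

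**Figure D5:**
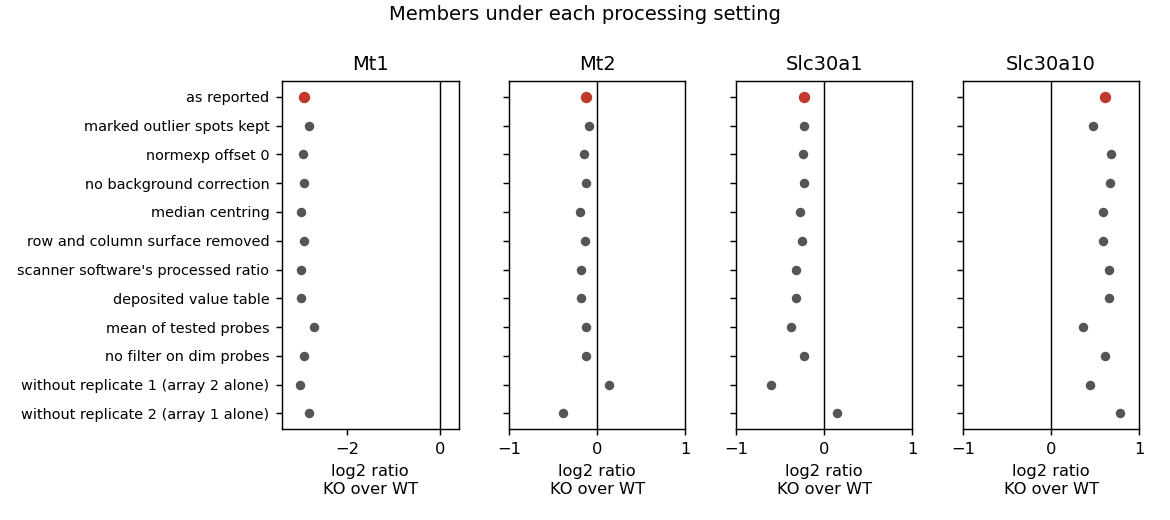
Mean log2 ratio of KO over WT of Mt1, Mt2, Slc30a1 and Slc30a10 (brightest probe) as reported (red) and under each other way of making the ratio, the last 2 rows using 1 array alone. Mt1 stays between -3.02 and -2.71, Slc30a10 between 0.36 and 0.78, and Mt2 and Slc30a1 change sign between single arrays.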

How the data were processed

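Spot intensity values were made by the authors with Feature Extraction, version 11.5.1.1 per the file headers and 9.5 per the submitters' processing notes, for design 014868. The mean spot intensity and the median local background were used. The deposited log10 ratio is processed Cy5 over processed Cy3, and the deposited value table repeats it, rounded, its medians being 0, with 0 further columns. Marked spots were left out, background was corrected by normexp (offset 50) and ratios by loess, in R 4.3.3 with limma 3.58.1. Repeat spots were averaged, and the sign was turned on the array with the knockout in Cy3. A probe was kept when well above background for one genotype on both arrays, in at least 0.5 of its spots, and each gene is given by its brightest kept probe. Limma's lmFit and eBayes tested all genes. The steps were also run on simulated data with independent noise and no dye effect of single genes, so that run does not cover such effects. Both arrays share a slide, so slide was not tested.

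Members and lists were chosen with earlier results of these data known. All members are named, and of each other list up to 4 genes with the largest value of the smaller absolute ratio of the arrays, among those with 1 sign on both. Cpne2, Nudt21, Pnliprp2, a clone and the markers not above background were named after their values were seen. Symbols were updated through RefSeq accessions of GRCm38.p6 for 31441 of 43379 spots, and promoter sequences are RefSeq's of that build. Protein sequences were not used here. Alternatives covered background, normalization, probe choice, filter, fold and each array alone.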

Additional observations from a re-analysis of the deposited data

How the results depend on the processing

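Mt1 kept its direction and its size past 1.5-fold on both arrays under all 9 alternatives of background, normalization, probe choice and filter, with a mean from -3.02 to -2.71 when single arrays are included. The count of members at least 1.5-fold lower was 1 in each of these, and 1 to 6 on single arrays. The count of higher members was 0 in each, 1 at 1.3-fold (Slc30a10) and 0 to 3 on single arrays. The members' median was -0.11 to 0.03 on single arrays. Over all genes limma called 0, and 39 with the scanner software's processed ratio, 37 with the deposited value table, 22 with normexp offset 0 and 2 with a row and column surface removed. Genes past 1.5-fold with 1 sign on each array numbered 41, and 161, 159 and 89 under the first 3 of those, 21 with marked spots kept, and 756 to 1049 on single arrays. The causes were not tested. Of 279 member ratios under these alternatives, 252 moved by less than the SD of the arrays, and 27 by more. The sign of the mean differed from that reported in 30 of the 279, at 8 members whose reported mean was within 0.05 of 0, Mt1 not among them. Depth cannot be given for arrays, and their number limits every value.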
